A study of Mus musculus with 8 samples.

Results

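Peptide genes that mark the nuclei around the dorsomedial hypothalamus (DMH) were measured in every library as a readout of the tissue that the dissection took in. The genes were given as a list of 10: Agrp, Npy, Pomc and Ghrh for the arcuate nucleus, Sst for the arcuate and periventricular region, Avp, Oxt and Crh for the paraventricular nucleus, and Hcrt and Pmch for the lateral hypothalamus. All 10 were found among the 55487 Ensembl gene identifiers of the tables, and 9 of them had enough reads to be tested between the groups. The study compared mouse DMH tissue that carried a short hairpin RNA against Ppp1r17 (group shPpp1r17, labelled as a Ppp1r17 knockdown) with DMH tissue that carried a hairpin against firefly luciferase, a control with no mouse target (group shfLuc, labelled as an fLuc knockdown), with 4 libraries in each. The titles mark all 8 samples with the letters LMD, the usual abbreviation of laser microdissection. The sources used here do not give strain, age, sex, the vector, the borders of the dissected area or whether each library is 1 animal. A p-value below therefore refers to the spread among these 8 libraries, part of which may be technical.

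Each of these genes encodes a precursor that is cut into small secreted peptides. Arcuate neurons that make Agrp and Npy promote feeding, and those that make Pomc restrain it, while Ghrh drives growth hormone release. Paraventricular neurons release oxytocin (Oxt) and vasopressin (Avp) from the posterior pituitary, and Crh starts the stress response. Orexin (Hcrt) and melanin-concentrating hormone (Pmch) come from scattered neurons of the lateral hypothalamus that act on arousal and feeding, and their cell fields reach the perifornical area and the border of the DMH. None of these genes is strictly limited to 1 nucleus: Npy and Sst neurons also lie within the DMH, Avp is made in the suprachiasmatic nucleus, and Pomc is made in the pituitary.

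Sequences are shown where they bear on how a gene was counted or on its start site. Avp and Oxt lie 3565 bases apart on chromosome 2, on opposite strands, and their coding sequences hold a stretch that is the same in both. A read that lies inside this run cannot be assigned to 1 of the genes by its letters. The run is 127 bases long, spans the end of exon 1 and part of exon 2 in each gene, and makes up 22.0% of the Avp mRNA and 23.6% of the Oxt mRNA in the GENCODE M21 annotation of GRCm38. Capitals mark the shared run and lower case the 10 bases on either side, in mRNA sense:
Avp: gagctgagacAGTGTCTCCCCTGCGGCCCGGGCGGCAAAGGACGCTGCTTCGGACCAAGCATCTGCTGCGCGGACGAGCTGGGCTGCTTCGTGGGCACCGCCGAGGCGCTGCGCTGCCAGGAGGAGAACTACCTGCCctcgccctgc
Oxt: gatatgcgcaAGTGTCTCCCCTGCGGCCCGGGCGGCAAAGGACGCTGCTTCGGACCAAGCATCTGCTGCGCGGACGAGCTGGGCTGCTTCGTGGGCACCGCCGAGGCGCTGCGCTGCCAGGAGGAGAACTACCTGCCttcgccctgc
The Avp run lies between chr2:130581133-130582411 (minus strand) and the Oxt run between chr2:130576328-130576715 (plus strand), with the intron of each gene inside these bounds.

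Hcrt and Pmch, the most abundant of the 10 genes, are shown with the 100 bases before their start sites, and Sst with 30 bases around the element for which its promoter is known, the binding site of the cyclic AMP responsive factor CREB. The sequences are those of RefSeq for GRCm38.p6. Capitals mark TATAAA in Hcrt and Pmch, which starts 33 and 27 bases before the start site, and TGACGTCA in Sst, which starts 48 bases before it:
Hcrt (chr11:100762932-100763031, minus strand): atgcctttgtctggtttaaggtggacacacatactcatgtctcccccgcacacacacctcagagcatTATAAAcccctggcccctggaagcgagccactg
Pmch (chr10:88090972-88091071, plus strand): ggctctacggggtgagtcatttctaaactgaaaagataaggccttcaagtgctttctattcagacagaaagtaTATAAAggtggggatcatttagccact
Sst (chr16:23890874-23890903, minus strand): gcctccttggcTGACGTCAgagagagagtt
Promoter windows matched 8 of the 10 genes, all but Agrp and Crh. TATAAA, searched on both strands of the RefSeq promoter window around the start site, was found for 4 of these 8 genes (Pomc, Ghrh, Hcrt and Pmch) and in 13.6% of all 32851 windows. TGACGTCA, which reads the same on both strands, was found for 1 of the 8 (Sst) and in 1.79% of all windows. These matches are a description of the letters in these windows.

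The libraries held between 25637389 and 33907984 estimated reads in shPpp1r17 and between 23070147 and 25749643 in shfLuc. Ppp1r17 itself, a phosphatase inhibitor enriched in the DMH, stood at 69.3, 1.62, 2.37 and 67.4 TPM (transcript abundance scaled to transcript length and library total) in shPpp1r17 1 to 4, and at 118, 134, 137 and 140 TPM in shfLuc 1 to 4. The shPpp1r17 libraries 2 and 3 therefore stood apart in the targeted gene. Of 9 DMH genes 8 were tested and 0 passed in edgeR, with a median log2 fold change of -0.45 and fold changes below 0 for 6 of the 8. For Ppp1r17 itself edgeR gave a log2 fold change of -1.83 (SE 0.80, adjusted p = 0.197). The count depended on the method: limma voom called 2 of the list, Ppp1r17 among them (log2 fold change -3.31, adjusted p = 0.0368), and DESeq2 called 0. Without the shPpp1r17 libraries 2 and 3 edgeR called 1 of the list. The summed level of the 9 genes was 143 to 287 TPM in shPpp1r17 and 338 to 422 TPM in shfLuc, with no overlap. The list includes Ppp1r17 itself, the target of the hairpin, so the knockdown enters this sum by design and the separation says little about the other genes. Npvf, the most abundant of the others, overlapped between the groups. It stood at 87.9 to 116 TPM in shPpp1r17 and 95.5 to 200 TPM in shfLuc. Brs3, an orphan bombesin-like receptor gene, stood at 16.2, 3.43, 3.88 and 13.6 TPM in shPpp1r17 1 to 4 and at 19.0, 21.8, 26.1 and 22.5 TPM in shfLuc 1 to 4 (log2 fold change -1.18, SE 0.39, adjusted p = 0.0910 in edgeR). Hmx2, a homeobox gene, did not overlap between the groups, at 1.82 to 2.86 TPM in shPpp1r17 and 3.12 to 4.07 TPM in shfLuc (adjusted p = 0.133 in edgeR), and neither did Brs3. Of all tested genes 13.9% did not overlap in CPM (reads scaled to the library total), and 6.74% did so with shPpp1r17 lower. Grp, gastrin-releasing peptide, stood at 22.7 to 55.0 TPM in shPpp1r17, lowest in libraries 2 and 3, and at 50.5 to 55.1 TPM in shfLuc. Gpr50, an orphan receptor, stood at 20.3 to 27.4 TPM in shPpp1r17 and 19.8 to 24.1 TPM in shfLuc. The part of these differences in the levels of the peptide genes was not tested. Kiss1, an arcuate peptide gene, had 0 reads in all 8 libraries, and Nr5a1, which defines ventromedial neurons, stood at 0.63 to 1.21 TPM in shPpp1r17 and 0.10 to 1.25 TPM in shfLuc. Other ventromedial genes stood higher or varied more. Fezf1 ran from 0.65 to 3.84 TPM in shPpp1r17 and from 0.39 to 5.88 TPM in shfLuc, highest in shfLuc 1. Adcyap1 stood at 7.56 to 14.9 TPM in shPpp1r17 and 10.5 to 14.1 TPM in shfLuc.

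Lateral hypothalamic peptides dominated the 10 genes in every library, the arcuate genes ranged from Ghrh at 74.8 TPM or above down to Agrp at 4.32 TPM or below, and of the paraventricular genes Oxt varied widely, Crh was low and Avp had 1 read in all. Hcrt and Pmch together held 79.4% to 86.5% of the summed TPM of the 10 genes in shPpp1r17 and 78.6% to 88.6% in shfLuc. The 4 arcuate genes held 3.75% to 5.09% in shPpp1r17 and 2.10% to 4.70% in shfLuc. Avp, Oxt and Crh together held 0.0480% to 1.10% in shPpp1r17 and 0.0633% to 1.24% in shfLuc. The order of median levels over the 8 libraries was Pmch, Hcrt, Sst, Ghrh, Npy, Pomc, Oxt, Agrp, Crh and Avp. Pmch and Hcrt overlapped in level across libraries, as did Hcrt and Sst, and Oxt spanned the range from Agrp to Npy. Sst lay above Ghrh, Ghrh above Npy and Npy above Pomc in all libraries with no overlap.

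**Figure D1:**
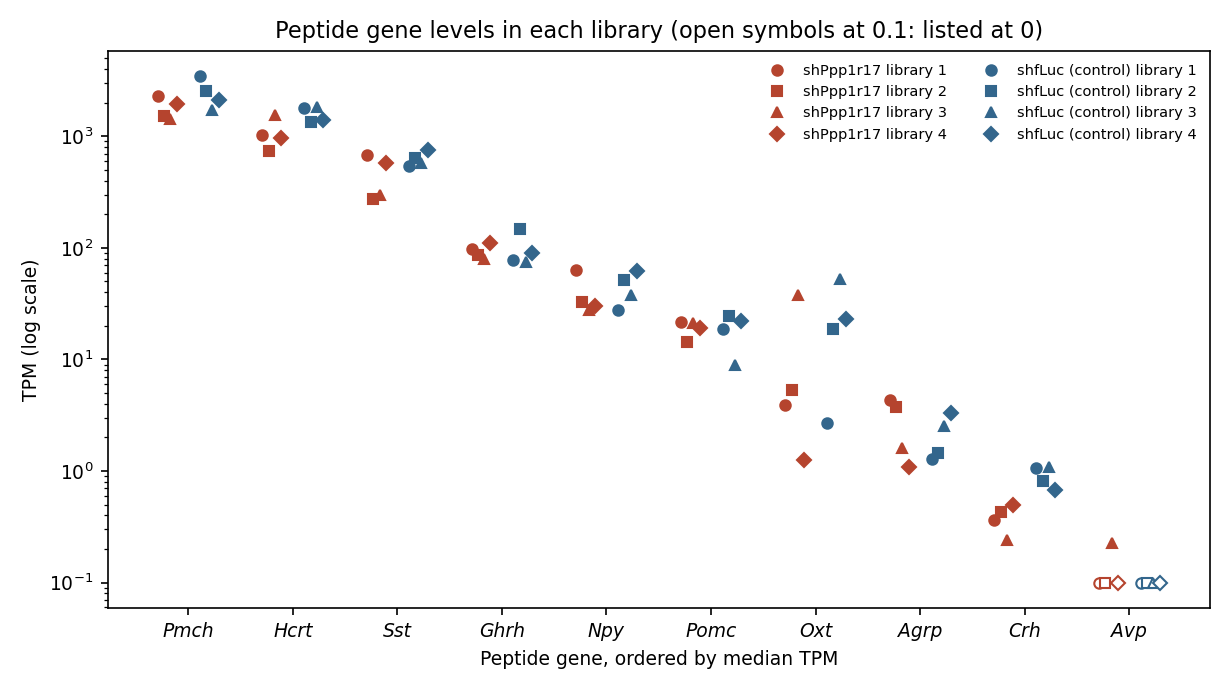
Level of each peptide gene (TPM, log scale) in every library, shPpp1r17 in red to the left of shfLuc in blue, 1 symbol shape per library number. Pmch and Hcrt lie at 741 TPM or above in every library, Oxt ranges from 1.25 to 52.8 TPM, and Avp is listed at 0 in all libraries but shPpp1r17 3.

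Pmch was among the most abundant transcripts of the tissue. It stood at 2322, 1532, 1435 and 1933 TPM in shPpp1r17 1 to 4 and at 3470, 2544, 1735 and 2124 TPM in shfLuc 1 to 4. The groups overlapped, since shPpp1r17 1 and 4 lay above shfLuc 3. Its rank among all gene identifiers by TPM ran from 23 to 99, and it took between 0.0672% and 0.157% of a library's estimated reads. The means were 1805 ± 406 TPM in shPpp1r17 and 2468 ± 745 TPM in shfLuc (SD, n = 4 each). Pmch did not pass the threshold of 0.05 in the quasi-likelihood test of edgeR (log2 fold change -0.39, SE 0.20, adjusted p = 0.265). Without the shPpp1r17 libraries 2 and 3 the log2 fold change was -0.16 (adjusted p = 0.812).

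Hcrt stood at 1034, 741, 1555 and 963 TPM in shPpp1r17 1 to 4 and at 1806, 1340, 1841 and 1413 TPM in shfLuc 1 to 4. The libraries shPpp1r17 1, 2 and 4 lay below every shfLuc library, and shPpp1r17 3 lay among them. Its rank by TPM ran from 54 to 225. The means were 1073 ± 345 TPM in shPpp1r17 and 1600 ± 260 TPM in shfLuc (SD, n = 4 each), and the difference did not pass the threshold in edgeR (log2 fold change -0.52, SE 0.20, adjusted p = 0.134). Without shPpp1r17 3 it was -0.79 (adjusted p = 0.0395), and without the shPpp1r17 libraries 2 and 3 together -0.67 (adjusted p = 0.101). Over all 20 alternatives the sign stayed negative and the adjusted p ran from 0.0302 to 0.298. In bulk tissue, fewer cells of a type and less RNA per cell cannot be told apart.

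The balance of the 2 lateral peptides differed between libraries in the same way in both groups. The ratio of Hcrt to Pmch on the TPM scale was 0.445, 0.484, 1.08 and 0.498 in shPpp1r17 1 to 4 and 0.520, 0.527, 1.06 and 0.665 in shfLuc 1 to 4. Library 3 of each group was the library with Hcrt at or above the level of Pmch. These were also the libraries with the highest Oxt of their group. This pattern was noticed in the values and was not tested, and a shared library number is not known to mean a shared animal or day.

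**Figure D2:**
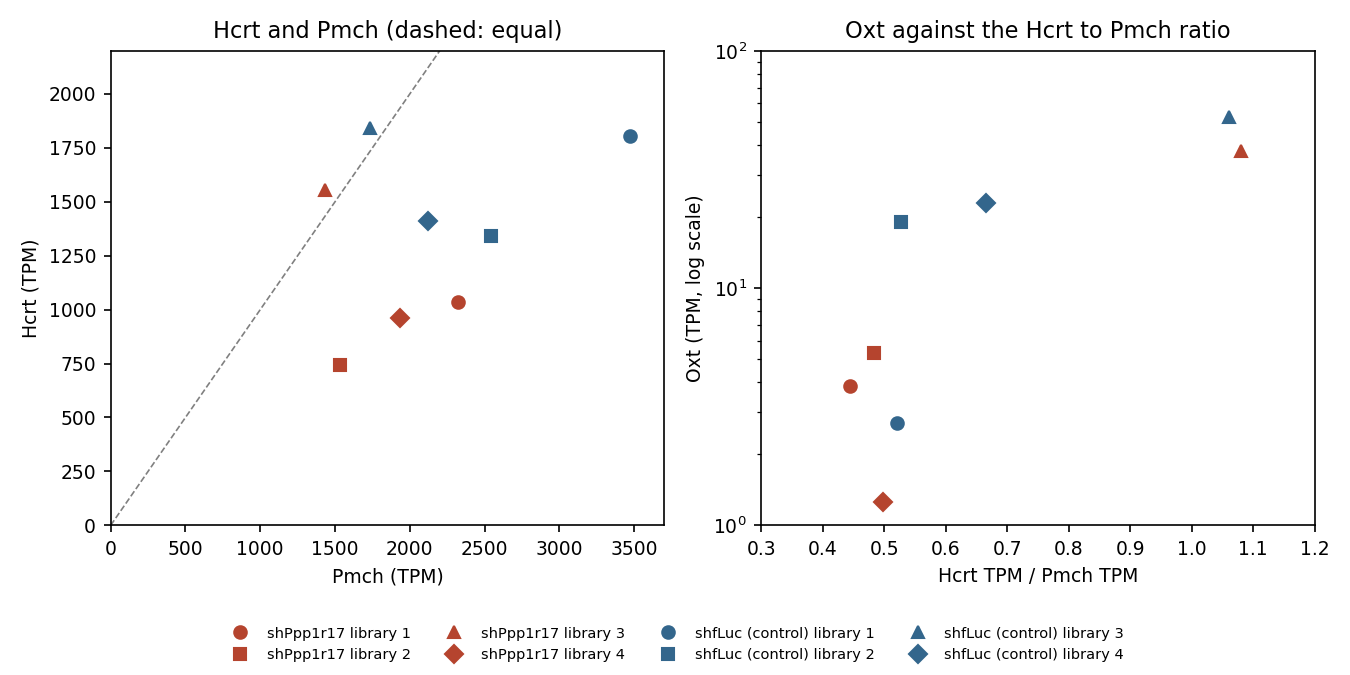
Left, Hcrt against Pmch (TPM) in each library with a dashed line of equal levels; right, Oxt (TPM, log scale) against the ratio of Hcrt to Pmch. Red marks shPpp1r17 and blue shfLuc; the triangles (library 3 of each group) have ratios of 1.08 and 1.06 and Oxt at 37.6 and 52.8 TPM.

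Pmch shares sequence with a gene on the other strand, and this left a trace in the estimated reads. Parpbp, which encodes a DNA repair protein, overlaps 435 of the 749 exonic bases of Pmch (chr10:88091072-88092375, plus strand, GRCm38, GENCODE M21). The estimated reads of both genes had decimal parts in all libraries but shPpp1r17 4, while their sum was a whole number in all 8, 27330, 18328, 18810 and 30691 in shPpp1r17 1 to 4 and 36922, 26170, 17449 and 24226 in shfLuc 1 to 4. Pmch exceeded Parpbp by 52.0 to 61.6 times in estimated reads in shPpp1r17 and by 51.6 to 57.1 times in shfLuc. Among 12220 genes, Parpbp was the gene whose log2 CPM (reads scaled to the library total), taken as the distance from the group mean, was most like that of Pmch over the 8 libraries (Pearson r = 0.977). Whether strand was used in counting is not stated in the sources used here, so reads from the shared bases cannot be told apart between both genes.

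**Figure D3:**
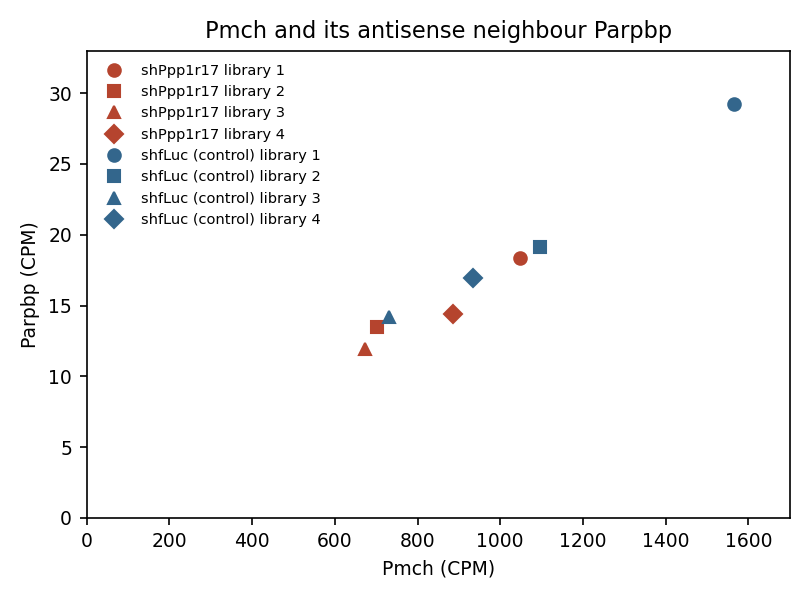
Parpbp against Pmch (CPM) in each library, red for shPpp1r17 and blue for shfLuc. Both genes are highest in shfLuc 1 and lowest in shPpp1r17 3.

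Other genes of lateral hypothalamic neurons gave a mixed picture. Not all of them are specific to that area, since Cartpt is also among the arcuate genes below. In a list of 8 genes (Nptx2, Lhx9, Pdyn, Nts, Gal, Tacr3, Cartpt and Zic1) all 8 were tested and 2 rose, the peptide genes Nts (log2 fold change 0.54, SE 0.09, adjusted p = 0.0113 in edgeR) and Cartpt (0.37, SE 0.08, adjusted p = 0.0175). Gal, the galanin precursor gene, stood at 2867, 2377, 2326 and 3170 TPM in shPpp1r17 and at 3779, 3173, 3450 and 3588 TPM in shfLuc, and did not pass (log2 fold change -0.31, SE 0.09, adjusted p = 0.0659). Which nucleus the Gal reads came from was not tested. The median log2 fold change of the list was 0.20, against 0.00 over all tested genes. Lhx9, a transcription factor of orexin neurons, was low in every library, at 0.45 to 1.11 TPM in shPpp1r17 and 0.93 to 1.45 TPM in shfLuc.

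Arcuate peptides were present in every library without a shared direction. Ghrh was the most abundant of them, at 97.9, 85.6, 79.4 and 111 TPM in shPpp1r17 1 to 4 and 77.1, 147, 74.8 and 90.4 TPM in shfLuc 1 to 4. The groups overlapped fully, and the log2 fold change was 0.02 (SE 0.19, adjusted p = 0.972 in edgeR). Npy stood at 64.0, 33.1, 27.8 and 30.4 TPM in shPpp1r17 1 to 4 and 28.0, 51.3, 37.9 and 62.4 TPM in shfLuc 1 to 4. The library shPpp1r17 1 was the highest of all 8, and the other shPpp1r17 libraries lay near the lowest shfLuc library, with a log2 fold change of -0.14 (SE 0.28, adjusted p = 0.817).

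Pomc stood at 21.6, 14.4, 21.01 and 19.2 TPM in shPpp1r17 1 to 4 and 18.6, 24.3, 8.86 and 22.2 TPM in shfLuc 1 to 4. The lowest value of both groups was that of shfLuc 3, and the log2 fold change was 0.09 (SE 0.27, adjusted p = 0.887). Pituitary genes gave almost no signal: Gh, Prl, Pou1f1 and Pitx1 had 0 reads in all 8 libraries, and the 8 genes of that list summed to 0.64 to 1.995 TPM in shPpp1r17 and 1.02 to 2.21 TPM in shfLuc. Agrp, the antagonist of melanocortin receptors, rested on few reads, 41, 36, 17 and 13 in shPpp1r17 1 to 4 and 11, 12, 21.1 and 31 in shfLuc 1 to 4. Its level was 4.32, 3.74, 1.60 and 1.08 TPM in shPpp1r17 and 1.29, 1.46, 2.56 and 3.34 TPM in shfLuc. The groups overlapped over nearly their whole range (log2 fold change 0.35, SE 0.52, adjusted p = 0.741). An upstream exon of Agrp in the annotation overlaps exons of Ctcf on the other strand and of the long noncoding gene Gm5914, so these few reads are not certain to be Agrp.

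Of the pairs of peptides whose levels were compared across libraries, none passed a test of correlation. Agrp and Npy, which one arcuate cell type makes together, correlated with r = 0.61 and rho = 0.67 over the 8 libraries on log2 CPM (exact permutation p = 0.118 and 0.0831, adjusted over 4 pairs p = 0.471 and 0.332). Without the 2 libraries farthest from the median of Agrp (shPpp1r17 1 and 2) r was 0.63, and with each group's mean removed it was 0.66. Npy and Pomc gave r = 0.38 and rho = 0.36 (exact permutation p = 0.395 and 0.389, adjusted p = 0.629 and 0.776), and r fell to 0.10 without shPpp1r17 1 and shfLuc 4. Agrp and Pomc gave r = -0.12 and rho = 0.05 (exact permutation p = 0.822 and 0.935, adjusted p = 0.822 and 0.935), with r = -0.26 without shPpp1r17 1 and 2. Hcrt and Pmch gave r = 0.30 and rho = 0.24 (exact permutation p = 0.471 and 0.582, adjusted p = 0.629 and 0.776), with r = -0.03 without shPpp1r17 2 and 4. All these tests were two-sided, none of the 4 pairs passed, and the labels name no batch within which to repeat them. The ratio of Npy to Agrp on the TPM scale ran from 8.85 to 28.2 in shPpp1r17 and from 14.8 to 35.1 in shfLuc.

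Of 8 further arcuate genes 6 were tested, of which 1 rose and 1 fell. Cartpt, described above, rose, and Prlr, the prolactin receptor, fell (log2 fold change -0.30, SE 0.07, adjusted p = 0.0306 in edgeR). Tac2, the neurokinin B gene, stood at 87.7 to 155 TPM in shPpp1r17 and 94.8 to 137 TPM in shfLuc (log2 fold change 0.22, SE 0.16, adjusted p = 0.477). Tbx3, a transcription factor of arcuate neurons, stood at 1.27 to 2.01 TPM in shPpp1r17 and 1.60 to 1.68 TPM in shfLuc.

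Sst, the somatostatin gene, was low in the shPpp1r17 libraries 2 and 3, the libraries in which Ppp1r17 was lowest. It stood at 680, 272, 298 and 577 TPM in shPpp1r17 1 to 4 and at 547, 637, 577 and 759 TPM in shfLuc 1 to 4. Libraries 1 and 4 of shPpp1r17 lay within the shfLuc range and libraries 2 and 3 below all others. The means were 457 ± 203 TPM in shPpp1r17 and 630 ± 93.9 TPM in shfLuc (SD, n = 4 each). The difference did not pass in edgeR (log2 fold change -0.41, SE 0.24, adjusted p = 0.341), and the log2 fold change was 0.03 (adjusted p = 0.940) without the shPpp1r17 libraries 2 and 3. The pattern was not particular to Sst: by the likeness used above for Pmch, 185 of 12220 genes reached r of at least 0.9 with it, the most of any member. Libraries 2 and 3 of shPpp1r17 also had the highest Gfap and oligodendrocyte sums, given below. The cause was not tested. Of the somatostatin receptors, Sstr5 stood at 0.76 to 1.15 TPM in shPpp1r17 and 1.39 to 2.37 TPM in shfLuc (log2 fold change -0.85, SE 0.28, adjusted p = 0.0946). Sstr3 stood at a log2 fold change of 1.18 (SE 0.44, adjusted p = 0.128).

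**Figure D4:**
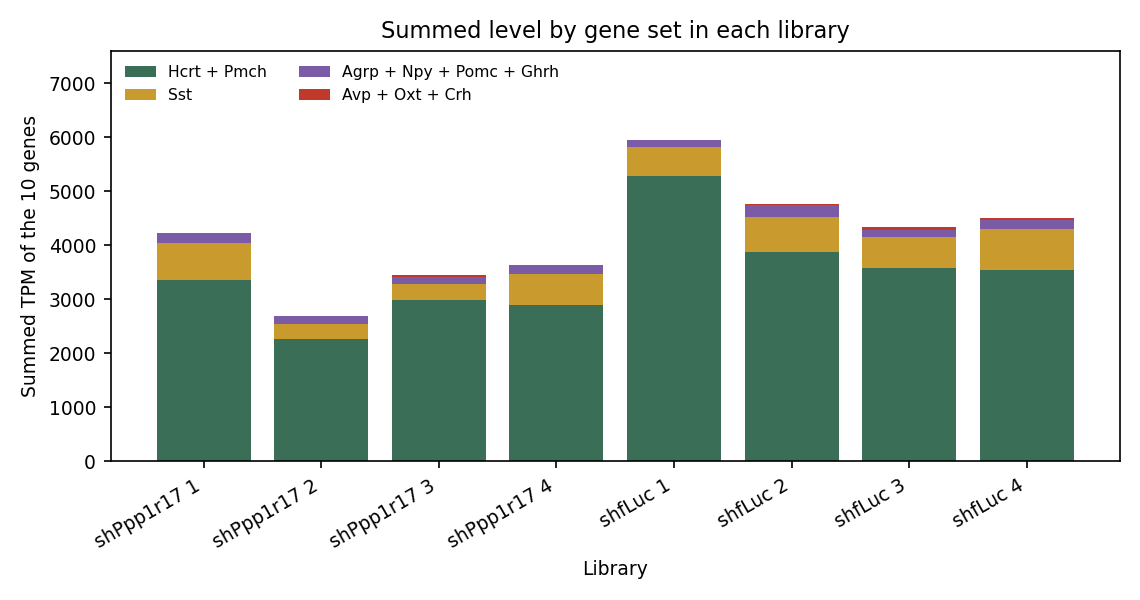
Summed TPM of the 10 genes in each library, stacked by gene set, with the 4 shPpp1r17 libraries to the left of the 4 shfLuc libraries. The sum runs from 2688 to 4228 in shPpp1r17 and from 4331 to 5952 in shfLuc, most of it Hcrt and Pmch. The groups do not overlap in this sum, which was not tested or set against other genes.

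The paraventricular genes differed from one another in level, with Oxt above Npy in library 3 of each group, Crh low in all libraries and Avp almost without reads. Avp had 0 reads in 7 libraries and 1 read in shPpp1r17 3, which is 0.227 TPM there. With 0 reads, a level of up to 0.295 to 0.386 TPM in shPpp1r17 1, 2 and 4 and up to 0.406 to 0.457 TPM in shfLuc cannot be told from 0 (3 reads per library, counting error alone). The library with the 1 Avp read was the shPpp1r17 library with the most Oxt reads. Both estimates there, 1 and 166 reads, were whole numbers, without the decimal parts seen for Pmch and Parpbp. Whether the Avp read lies in the shared run printed above is not known, so it is not certain to be Avp. Avp was not tested between the groups. Vip, a peptide gene of the suprachiasmatic nucleus, stood at 0.34 to 1.15 TPM in shPpp1r17 and 0.17 to 1.75 TPM in shfLuc.

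Oxt varied more between libraries than any other of the tested genes on this list. It had 16, 21, 166 and 7 reads in shPpp1r17 1 to 4 and 10, 66, 176 and 87 in shfLuc 1 to 4, which gave 3.87, 5.32, 37.6 and 1.25 TPM in shPpp1r17 and 2.70, 18.9, 52.8 and 22.9 TPM in shfLuc. The highest library exceeded the lowest by 42.1 times on the TPM scale, against 4.45 times for Crh, the next most variable. Each group held a library with 10 reads or fewer and a library with 166 reads or more. The log2 fold change was -0.88 (SE 0.86, adjusted p = 0.591 in edgeR), and it was -3.13 (adjusted p = 0.192) without the shPpp1r17 libraries 2 and 3.

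Crh was near the limit of detection, with 7, 8, 5 and 12 reads in shPpp1r17 1 to 4 and 18, 13, 17 and 12 in shfLuc 1 to 4. This was 0.37, 0.43, 0.24 and 0.49 TPM in shPpp1r17 and 1.07, 0.81, 1.08 and 0.67 TPM in shfLuc. The groups did not overlap, with shPpp1r17 lower, which in CPM held for 6.74% of all tested genes. The difference did not pass the threshold in edgeR at this depth (log2 fold change -1.15, SE 0.46, adjusted p = 0.154), and the log2 fold change was -0.998 (adjusted p = 0.566) without the shPpp1r17 libraries 2 and 3.

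Transcription factors and peptides of paraventricular neurons did not pass the threshold in either direction in edgeR. Of 8 genes (Sim1, Otp, Pou3f2, Trh, Arnt2, Scgn, Nr4a2 and Tac1) all were tested and 0 passed, with a median log2 fold change of -0.17. An unadjusted p under 0.05 was reached by 4 of the 8, against 22.6% of all tested genes. Trh, the thyrotropin-releasing hormone gene, which DMH neurons also make, stood at 135, 97.2, 77.3 and 156 TPM in shPpp1r17 1 to 4 and 213, 177, 143 and 182 TPM in shfLuc 1 to 4, with a log2 fold change of -0.54 (SE 0.18, adjusted p = 0.0994). Sim1, which specifies paraventricular neurons, stood at 0.98, 0.79, 0.60 and 0.45 TPM in shPpp1r17 and 0.86, 0.94, 1.23 and 1.34 TPM in shfLuc (log2 fold change -0.62, SE 0.26, adjusted p = 0.175). Scgn, also with an unadjusted p under 0.05, went the other way (log2 fold change 0.29, SE 0.11, adjusted p = 0.141 in edgeR). The fold change was below 0 for 6 of the 8 genes and above 0 for 2, Scgn and Tac1.

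Between the groups, 0 of the 9 tested peptide genes passed an adjusted p of 0.05 in edgeR, against 6.06% of all 17339 genes tested (3.39% higher and 2.66% lower in shPpp1r17). Hcrt and Crh had an unadjusted p under 0.05, which 22.6% of all tested genes had, so their count is near that background. DESeq2 called 0 of the 8 genes for which it gave an adjusted p (it gave none for Crh), and limma voom called 0 of the 9. The fold change was below 0 for 6 of the 9 genes and above 0 for 3, with a median of -0.39 on the log2 scale against 0.00 over all tested genes. The groups did not overlap in CPM for 1 of the 9 genes, Crh, against 13.9% of all tested genes in either direction and 6.74% in the direction of Crh, lower in shPpp1r17. Of all tested genes 56.0% of the 1050 calls were higher in shPpp1r17, and 36.8% of 903 calls with limma on log2(TPM + 1). On that TPM scale the median log2 fold change over all tested genes was -0.0752, so TPM values ran somewhat lower in shPpp1r17.

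**Figure D5:**
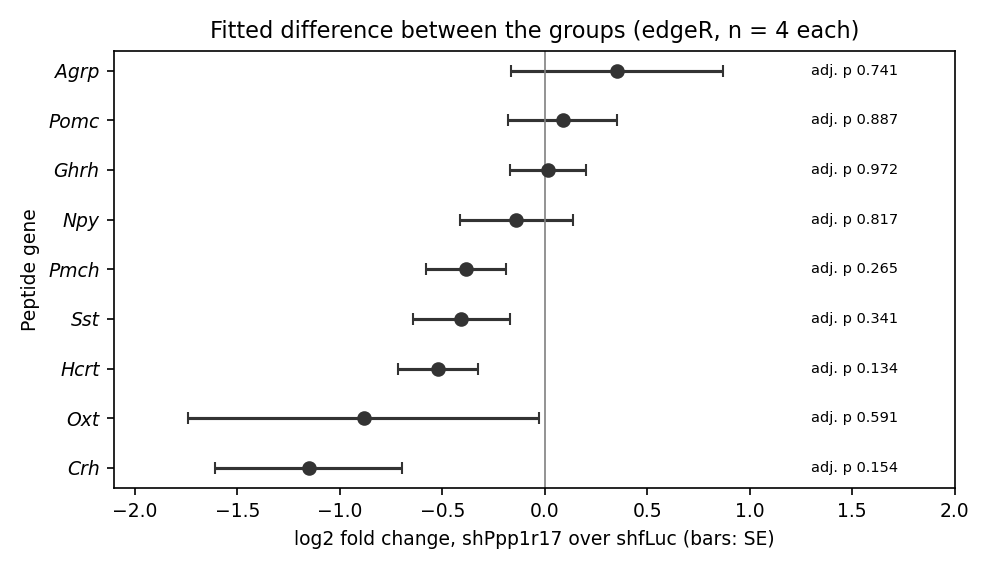
Fitted log2 fold change of shPpp1r17 over shfLuc with its SE for the 9 tested peptide genes (edgeR, n = 4 libraries each), with the adjusted p beside each. Values run from -1.15 for Crh to 0.35 for Agrp.

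The receptors of these peptides and the enzymes that process them were checked as the other steps of the same signalling. Of 20 receptor genes 16 were tested and 0 passed in edgeR (4 of the 16 had an unadjusted p under 0.05, near the 22.6% of all tested genes), with a median log2 fold change of 0.03. Hcrtr2, the second orexin receptor, was the most abundant receptor of orexin or melanin-concentrating hormone, at 10.04 to 13.25 TPM in shPpp1r17 and 11.6 to 15.1 TPM in shfLuc. Mchr1, the receptor of melanin-concentrating hormone, stood at 4.90 to 8.598 TPM in shPpp1r17 and 4.21 to 5.26 TPM in shfLuc (log2 fold change 0.47, SE 0.18, adjusted p = 0.136). Of 11 genes of precursor processing and dense-core granules all were tested and 0 passed (0 had an unadjusted p under 0.05), with a median of -0.04. Cpe, carboxypeptidase E, which trims the cut peptides, stood at 1656 to 1880 TPM in shPpp1r17 and 1761 to 2056 TPM in shfLuc.

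Markers of other cell types moved between the groups beside these values. All 5 blood genes rose in edgeR (summed level 2110 to 3873 TPM in shPpp1r17 and 1115 to 1813 TPM in shfLuc). Of 8 microglial genes 3 rose and 0 fell (303 to 502 TPM in shPpp1r17 and 209 to 298 TPM in shfLuc). Of 8 oligodendrocyte genes 3 rose and 0 fell, with sums of 753, 1167, 1212 and 706 TPM in shPpp1r17 1 to 4 and 702 to 766 TPM in shfLuc. The shPpp1r17 libraries 2 and 3 were raised, and 1 and 4 lay at or near the shfLuc range. Of 8 astrocyte genes 2 rose and 1 fell (summed level 1518 to 1720 TPM in shPpp1r17 and 1586 to 1754 TPM in shfLuc). Gfap, the intermediate filament gene of astrocytes, stood at 62.4, 178, 125 and 59.1 TPM in shPpp1r17 1 to 4 and 46.1, 22.6, 30.7 and 28.5 TPM in shfLuc 1 to 4 (log2 fold change 1.82, SE 0.33, adjusted p = 0.0124 in edgeR). S100b rose (log2 fold change 0.29, adjusted p = 0.0341) and the glutamate transporter gene Slc1a3 fell (-0.46, adjusted p = 0.0320). Of 6 endothelial genes 1 rose, Ly6c1 (log2 fold change 0.84, adjusted p = 0.0151), with sums of 110 to 190 TPM in shPpp1r17 and 93.6 to 117 TPM in shfLuc. Of 13 neuronal genes 1 rose and 4 fell (2997 to 3266 TPM in shPpp1r17 and 3128 to 3324 TPM in shfLuc). No gene of these 6 lists was at 0 in all libraries. Without the shPpp1r17 libraries 2 and 3, when edgeR called 37 genes in all, it called 0 genes of each of these 6 lists and 0 of the lateral and arcuate lists above. Still, shPpp1r17 1 and 4 lay above the shfLuc range in the blood sum (2498 and 2110 TPM), the microglial sum (360 and 303 TPM) and Gfap. Their oligodendrocyte sums lay within that range, and their astrocyte and neuronal sums below it. The part of these cell types in the levels of the peptide genes was not tested.

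By the likeness used above for Pmch, the genes most like the other members over the 8 libraries were Nudt18 for Hcrt (r = 0.987), Rpp30 and Txn2 for Sst (both 0.991), Casq2 for Ghrh (0.972), Atp6v0a2 for Npy (0.983), Rasl10b for Pomc (0.982), Slc37a3 for Agrp (0.978), Tinagl1 for Oxt (0.981) and Tonsl for Crh (0.979). With 12220 genes searched over 8 libraries, 11 to 185 genes reached r of at least 0.9 with each member, and no test was made.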

How the data were processed

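Expected counts and TPM deposited by the authors were used, 1 table for each of 8 mouse libraries (total RNA, PicoPure extraction and a SMARTer mRNA kit, per the labels' protocols). Among the tools that the submitters' processing notes list are DRAGEN, bcl2fastq, limma and edgeR, with no roles. The sources used here give no aligner settings, build or annotation. The deposited TPM, so named in the file headers, are by definition scaled to transcript length and library total. Of 55487 identifiers 55141 matched a symbol, and the gene length of 99.5% of 34176 genes with 1 transcript equalled that in GENCODE M21 (GRCm38), from which coordinates were taken. Counts were rounded and tested with edgeR 4.0.16 (R 4.3.3; TMM, minimum count 10, minimum total 15, group as the single term, Benjamini-Hochberg over 17339 genes, threshold 0.05), which was tested on simulated data. SE came from the fold change and its F statistic. Correlations used log2 CPM with a prior count of 2 and exact permutations in NumPy 2.4.6; 2 further pairs with Avp were left out because Avp had 1 read in all. Replicate libraries differed by 7.1 to 37 times counting noise. Intervals and floors cover counting error only, and the labels name no molecular identifiers. All 10 genes are named, and from each further list some of the called genes and of the 3 with the smallest p; others such as Lhx9, Tac2, Tbx3, Vip, Hcrtr2 and Cpe were picked after their values were seen. For likeness, genes needed an average log2 CPM of at least 1. The members and lists were chosen with earlier results of these data known. Alternatives were RLE factors, library totals, other filters, DESeq2 1.42.0, limma 3.58.1 voom with and without sample weights, limma on log2(TPM + 1) and log2(TPM + 0.1), an effective length offset, a block for the replicate number, and leaving out libraries.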

Additional observations from a re-analysis of the deposited data

Results flagged for a closer look

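Some values are given again here because 1 library lay far from the other 3 of its group; 21 groups of 4 were examined, and chance alone marks about 1 in 20. Npy stood at 64.0 TPM in shPpp1r17 1, and the other libraries of the group at 27.8 to 33.1 TPM. Oxt stood at 37.6 TPM in shPpp1r17 3, and the others at 1.25 to 5.32 TPM. Avp stood at 0.227 TPM in shPpp1r17 3, from 1 read, and at 0 in the others. With the other 3 libraries at 0 the rule marks any value above 0, so the rate of 1 in 20 does not apply to Avp.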

How the results depend on the processing

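At an adjusted p of 0.05 edgeR called 1050 genes; DESeq2 called 1903, limma voom with sample quality weights 1763, and edgeR 37 without the shPpp1r17 libraries 2 and 3. Leaving out 1 library gave 0 to 1548 genes, with 0 without shfLuc 2 and 0 without shfLuc 3 (3309 and 3146 at an unadjusted p under 0.05), 196 without shPpp1r17 3, 287 without shfLuc 4 and 310 without shPpp1r17 2. Of the peptide genes, 1 (Hcrt) passed with no filter on low counts (adjusted p = 0.0327), 1 (Hcrt) with the replicate block (0.0302), and 0 to 1 when 1 library was left out, Hcrt again without shPpp1r17 3; the cause was not tested. The replicate block gave 726 genes; libraries of the same number correlated at -0.01 to 0.12 and 2 of 4 correlated best with their own number, so the numbers are not taken to pair samples. The log2 fold change of Ghrh turned to -0.0166 with quality weights, -0.0135 on log2(TPM + 1) and -0.0133 on log2(TPM + 0.1). With 1 library left out it ran from -0.103 to 0.284 for Ghrh, from -0.15 (without shfLuc 3) to 0.252 for Pomc and from -0.488 to 0.0571 (without shfLuc 4) for Npy. Without the shPpp1r17 libraries 2 and 3 it was 0.12 for Npy and 0.0337 for Sst. The correlation of Hcrt and Pmch was -0.00215 with group means removed and -0.0917 to 0.521 with 1 library left out, and that of Agrp and Pomc 0.0146 without the shPpp1r17 libraries 2 and 3. Among fold changes of the tested peptide genes, Ppp1r17 and Parpbp under alternatives, 198 kept sign and side of the threshold, 12 changed sign and 6 came to pass it. Hcrt was the only peptide gene among these 6, in 3 of its 20 alternatives. Agrp, Crh, Oxt and Avp rest on few reads, which limits what their levels can show.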

Other observations

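Marker lists of other tissue near the DMH were also summed. Of 8 tanycyte and ependymal genes 7 were tested in edgeR and 1 rose, Crym (log2 fold change 2.11, SE 0.46, adjusted p = 0.0217). Crym stood at 16.2, 27.1, 22.1 and 5.12 TPM in shPpp1r17 1 to 4 and at 4.75, 7.02, 3.89 and 1.695 TPM in shfLuc 1 to 4. The groups overlapped, since shPpp1r17 4 lay below shfLuc 2. The 8 genes had a summed level of 33.3 to 106 TPM in shPpp1r17 and 23.3 to 51.8 TPM in shfLuc. Of 6 ventromedial genes 1 fell, Fam19a1 (log2 fold change -1.02, SE 0.17, adjusted p = 0.0107 in edgeR), and 0 rose. The fold change was above 0 for 4 of the 6 and below 0 for 2, with a median of 0.13 on the log2 scale. Their sums were 26.0 to 39.7 TPM in shPpp1r17 and 32.01 to 47.15 TPM in shfLuc. Of 8 periventricular and suprachiasmatic genes 1 fell, the nuclear receptor gene Rorb (log2 fold change -0.48, adjusted p = 0.0329 in edgeR). Of 8 genes of the zona incerta, thalamus and mammillary area 7 were tested in edgeR and 0 passed. The 8 genes summed to 53.7 to 79.1 TPM in shPpp1r17 and 60.9 to 121.6 TPM in shfLuc. The most abundant were Tcf7l2 (23.5 to 41.3 TPM in shPpp1r17 and 26.05 to 63.0 TPM in shfLuc) and Hdc (14.3 to 32.2 TPM and 26.3 to 46.9 TPM). Without the shPpp1r17 libraries 2 and 3 edgeR called 0 genes of each of these 4 lists. These values were not tested against the peptide genes.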
